A study of Mus musculus with 2 samples.

Results

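The transcripts of 10 genes by which astrocytes are recognised, *Gfap*, *Aqp4*, *S100b*, *Gja1*, *Aldoc*, *Clu*, *Apoe*, *Sparcl1*, *Glul* and *Aldh1l1*, were followed in endothelium sorted from the normal mouse brain. Every probe set annotated to 1 of these symbols was taken, which gave 26 of the 45101 probe sets of the array. The cells came from the brain vasculature of C57BL/6 mice with no pathology. By FACS they were separated into CD31+CD133- and CD31+CD133+ populations, called Prom1- and Prom1+ here after the mouse name of CD133. CD31 is an adhesion molecule of endothelium, and both populations passed the same CD31 gate. RNA of each population was amplified, labeled with biotin and hybridized to 1 Affymetrix mouse array. The sources used here give neither the age nor the number of the mice. With 1 array per population there was no replicate error, so the comparison has no test and every fold below describes this pair of arrays.

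Astrocytes are the glia that ensheath brain capillaries. Their endfeet press against the basement membrane around endothelium and pericytes, and they clear water, potassium and glutamate from the tissue beside the vessel. CD31 is not a protein of astrocytes, so a CD31 gate selects against them, although pieces of endfeet are known to cling to vessels when brain tissue is dissociated. The 10 genes differ in how closely they belong to these cells. *Gfap*, *Aqp4*, *Aldh1l1*, *Aldoc* and *S100b* are transcribed mostly by astrocytes among the cells around brain capillaries, with *S100b* also known from oligodendrocytes. *Gja1*, *Clu*, *Apoe*, *Sparcl1* and *Glul* are abundant in astrocytes and also known from other cells, among them the macrophages that make *Apoe*, the endothelium that makes *Sparcl1* and the oligodendrocytes that make *Glul*.

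Signals are given as multiples of the median of their own array. A signal under 1.67 times the median, which stands for 100 on the scale of the scanner target of 500, was set to this floor. Where 1 of the 2 signals lay under the floor the fold is a bound, and where both did no fold is given. The Bacillus control probe sets, for which mouse cells have no transcript, reached at most 0.276 times the median on the array labelled Prom1- and 0.234 times on that labelled Prom1+. *Prom1* had signals of 196 and 159 times the median in the arrays labelled Prom1- and Prom1+, so its transcript was not higher as deposited in the array labelled for it. The log2 ratio of -0.30 stayed below 0 in the other scalings described below, except for 0.73 with the hybridization controls set equal. Both arrays are named by their labels throughout. *Pecam1*, the gene of CD31, had signals of 48.2 and 69.2 times.

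Of the 12 probe sets of the 5 genes mostly of astrocytes, 3 reached the floor on both arrays, 1 on the array labelled Prom1- alone and 8 on neither. Of the 14 probe sets of the 5 shared genes, 13 reached it on both arrays and 1 on neither. *S100b* was more than 5-fold lower in the array labelled Prom1+ by both of its probe sets, and 1 of the 2 probe sets of *Aldoc* was at least 2.83-fold lower. *Gfap*, *Aqp4* and *Aldh1l1* were under the floor on both arrays as deposited, *Aqp4* narrowly so on the array labelled Prom1-. The shared genes differed by less than 2-fold, except for 1 probe set of *Glul* that the array labelled Prom1+ had 2.03-fold higher, and under 2-fold in 4 of the 6 scalings below.

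**Figure D1:**
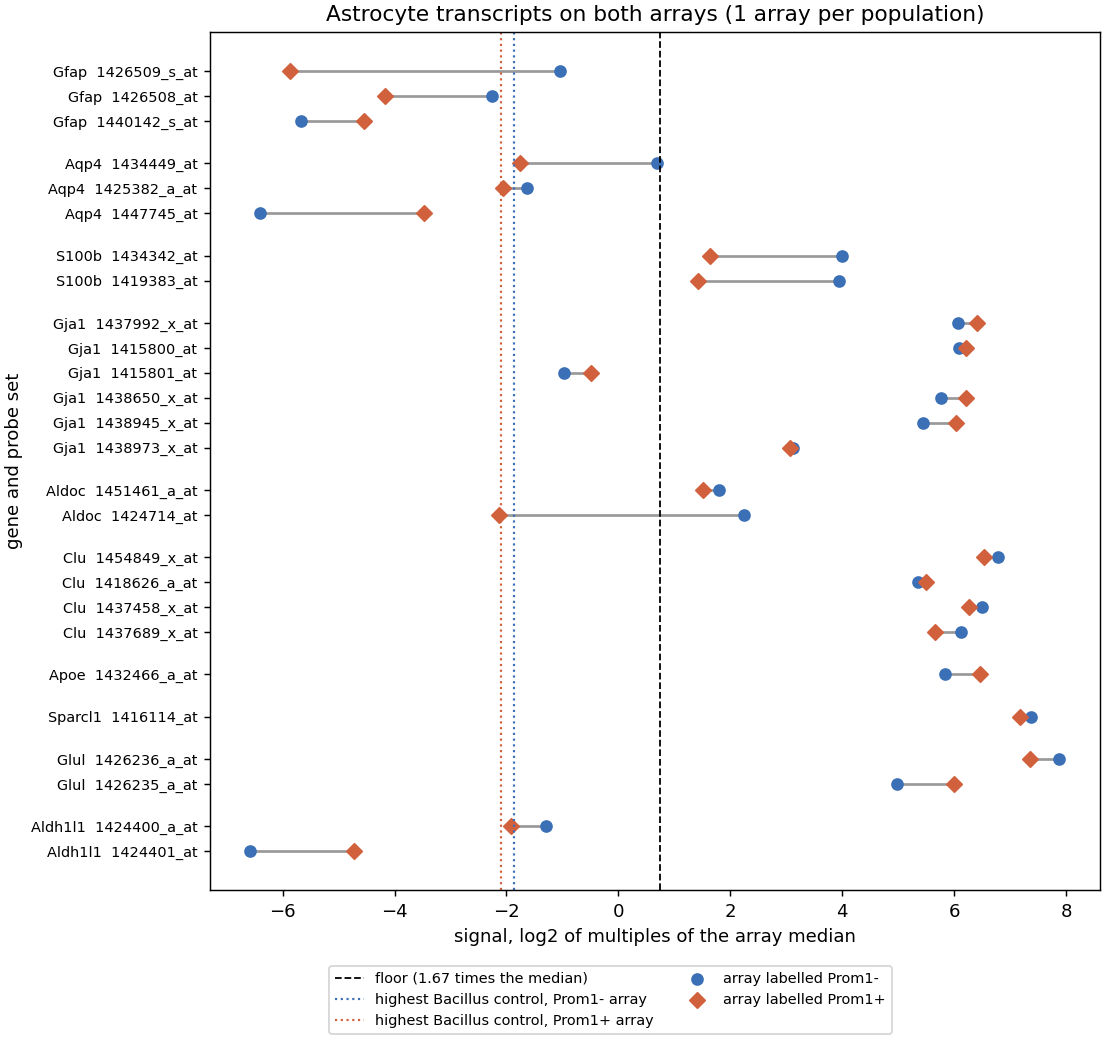
Log2 signal of each of the 26 probe sets relative to the median of its array, with circles for the array labelled Prom1- and diamonds for the array labelled Prom1+. The probe sets of *Gfap*, *Aqp4* and *Aldh1l1* lie left of the floor of 1.67 times the median (dashed line), and the pairs of *S100b* and of *Aldoc* 1424714_at are the widest among those that reach it.

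By probe set, the array labelled Prom1+ had 3 of the 26 lower by 2-fold or more and 1 higher, where among all 34958 probe sets with 1 gene symbol 2.24% were lower and 15.2% higher. Taking the brightest probe set for each gene, 1 of 10 was lower (*S100b*) and none was higher, against 2.83% and 16.7% of 18194 genes. The median log2 ratio of Prom1+ over Prom1- was 0.66 over the 17488 probe sets that both arrays measured above the floor, and this shift varied with signal. Probe sets with a mean log2 signal of 2 to 3 had a median of 0.81, those of 6 to 7 had 0.27 and those of 7 to 8 had -0.23. The split of lower and higher genes therefore depended on the scaling. It was 515 and 3045 genes as deposited, 867 and 879 with both arrays at a 2% trimmed mean of 500, 841 and 689 with quantile normalization, 849 and 599 after loess on signal, and 189 and 8644 when the hybridization controls were made equal. The median log2 ratio of genes measured on both arrays moved in the same order from 0.69 to 0.16, 0.10, 0.03 and 1.70. With the median log2 ratio of pan-endothelial genes at 0 it was 0.59.

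The cytoskeletal gene *Gfap*, which encodes the intermediate filament protein of astrocytes, gave no signal above the floor. Its brightest probe set, 1426509_s_at, had 0.483 times the median on the array labelled Prom1-, against 0.0171 times on that labelled Prom1+. The first value lay above the highest Bacillus control of its array and the second did not. Probe set 1426508_at had 0.208 and 0.0558 times the median, and 1440142_s_at had 0.0197 and 0.0430 times. These 4 values lay within the range of the Bacillus controls, and the latter probe set ran opposite to the other 2.

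The water channel aquaporin 4 (*Aqp4*), which crowds the endfoot membrane that faces the vessel, came nearest to the floor of these unmeasured genes. Probe set 1434449_at had 1.61 times the median on the array labelled Prom1-, just under the floor of 1.67, and 0.294 times in the array labelled Prom1+. Its log2 ratio as deposited was -2.45. Both values were above the Bacillus controls, the second by little, and with a floor of 50 in place of 100 the ratio is a bound of -0.94. With a trimmed mean of 500 or quantile normalization, 1434449_at reached the floor of 100 on the array labelled Prom1- alone. The bounds were then -0.24 and -0.05. Probe set 1425382_a_at had 0.323 and 0.240 times the median, a log2 ratio of -0.43, and 1447745_at had 0.0118 and 0.0899 times, a ratio of 2.93 with no value above the Bacillus controls.

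Connexin 43 (*Gja1*) forms the gap junctions that join astrocytes into a network, and is also made by other cells of the vessel wall, the meninges and the ependyma. It was bright on both arrays. Probe set 1437992_x_at had 67.0 times the median on the array labelled Prom1-, against 84.5 times on that labelled Prom1+, 1.26-fold higher. Probe set 1415800_at had 67.6 and 73.6 times, 1438650_x_at had 54.1 and 73.7 times, and 1438945_x_at had 43.7 and 65.5 times. The dimmer 1438973_x_at had 8.73 and 8.40 times, and 1415801_at was under the floor at 0.511 and 0.710 times. The log2 ratios of the 5 measured probe sets ran from -0.06 to 0.58 with an SD of 0.25, less than the SD of 0.54 pooled over the probe sets of 3930 genes. That SD is the only error these arrays give, and the spread between animals is not part of it. The sign of the *Gja1* ratio was not settled, since it was -0.21 for 1437992_x_at with a trimmed mean of 500, -0.01 after loess and 1.36 with the hybridization controls set equal.

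*S100b*, which encodes a calcium-binding protein of astrocytes and some oligodendrocytes, was the only gene of the 10 whose probe sets were all at least 2-fold lower. Probe set 1434342_at had 15.9 times the median on the array labelled Prom1-, against 3.11 times on that labelled Prom1+, 5.11-fold lower. Probe set 1419383_at had 15.4 and 2.67 times, 5.75-fold lower. All 4 values were above the floor, and the log2 ratios of -2.35 and -2.52 differed from each other with an SD of 0.12. At a mean log2 signal of 2 to 3, where both lie, the median log2 ratio of measured probe sets was 0.81 and 5.36% were at least 2-fold lower. In the 6 scalings the 2 ratios stayed between -3.40 and -1.33, so that *S100b* was at least 2-fold lower in each of them. In bulk RNA, fewer cells of a type and less RNA per cell cannot be told apart.

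**Figure D2:**
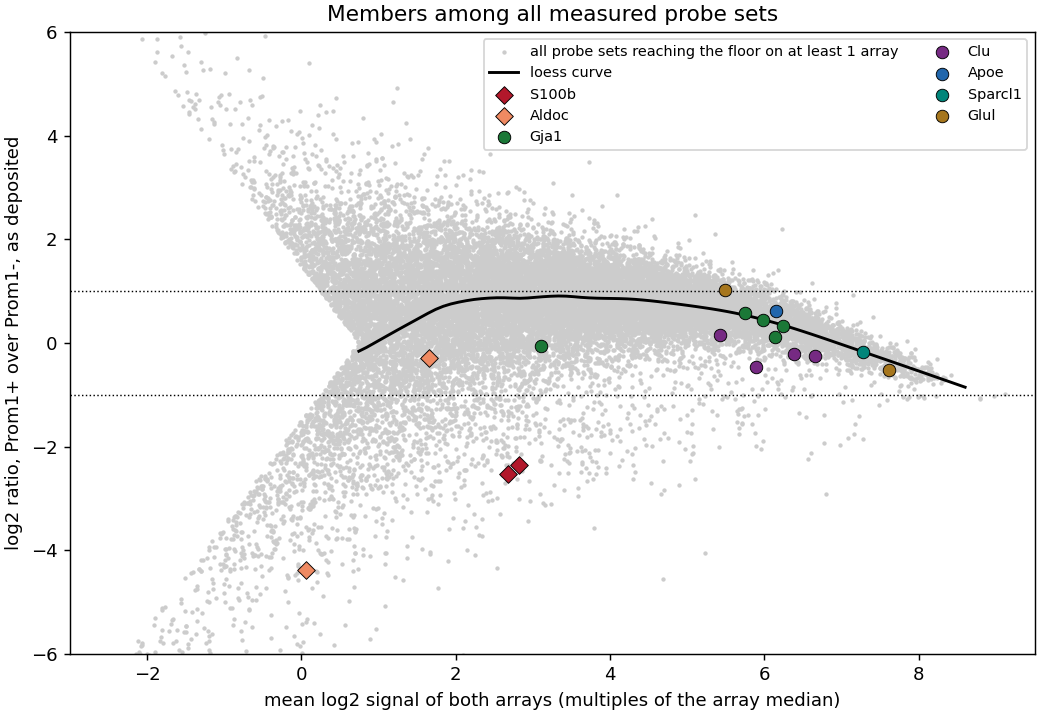
Log2 ratio of Prom1+ over Prom1- as deposited against the mean log2 signal of both arrays, for all probe sets with at least 1 signal above the floor (grey), with the loess curve (black) and such probe sets of the 10 genes (diamonds for *S100b* and *Aldoc*, circles for shared genes). *Aldoc* 1424714_at, the lowest of the diamonds and circles, is drawn at its ratio of -4.38 without the floor, although its signal on the array labelled Prom1+ lay under the floor. Dotted lines mark 2-fold. The probe sets of *S100b* lie at -2.35 and -2.52, where the median of all is 0.81, and those of *Sparcl1*, *Apoe* and *Gja1* above a mean log2 signal of 5 lie near the curve.

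Aldolase C (*Aldoc*), the glycolytic enzyme of astrocytes and Purkinje cells, was measured on both arrays by 1 of its 2 probe sets. Probe set 1424714_at had 4.74 times the median on the array labelled Prom1-, against 0.228 times on that labelled Prom1+, where it was under the floor and below the highest Bacillus control. It was at least 2.83-fold lower. Probe set 1451461_a_at had 3.47 and 2.85 times the median, a log2 ratio of -0.28. Both probe sets are annotated to the same transcript, and the second, by its mean signal, stands for the gene. The bound of the first was at least 2-fold in 5 of the 6 scalings and had a log2 ratio of -0.99 with the hybridization controls set equal. The ratio of the second ran from -0.87 after loess to 0.74 with the hybridization controls set equal. Both ratios were thus below 0 in 5 of the 6 scalings, and whether the gap reached 2-fold depended on the probe set.

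*Aldh1l1*, the folate enzyme whose promoter is used to mark astrocytes, was under the floor on both arrays. Its brighter probe set, 1424400_a_at, had 0.409 times the median on the array labelled Prom1-, against 0.266 times on that labelled Prom1+, each a little above the Bacillus controls of its array. Probe set 1424401_at had 0.0105 and 0.0379 times, near the lowest signal of the file, 0.01 times.

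Glutamine synthetase (*Glul*), which turns glutamate taken up at synapses into glutamine, was bright and its probe sets ran opposite ways. Probe set 1426236_a_at had 235 times the median on the array labelled Prom1-, against 163 times on that labelled Prom1+, 1.44-fold lower. Probe set 1426235_a_at had 31.6 and 64.0 times, 2.03-fold higher. The SD of their log2 ratios was 1.09. These 2 probe sets lie on different parts of the shift between the arrays, and after loess their log2 ratios were -0.19 and 0.40. The brighter had a ratio of 0.50 with the hybridization controls set equal and -1.07 with a trimmed mean of 500, while the dimmer stayed above 0 in the 6 scalings and was at least 2-fold higher in 2 of them.

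The secreted lipid carriers were bright on both arrays. *Apoe*, the apolipoprotein by which astrocytes and macrophages export cholesterol, has 1 probe set, with 57.3 times the median on the array labelled Prom1-, against 88.4 times on that labelled Prom1+. It was 1.54-fold higher, a log2 ratio of 0.62, and stayed above 0 in the 6 scalings, from 0.08 with a trimmed mean of 500 to 1.65 with the hybridization controls set equal. Clusterin (*Clu*), an extracellular chaperone and apolipoprotein, had 110 and 92.1 times the median by 1454849_x_at. Its other probe sets had 90.1 and 77.3 times (1437458_x_at), 69.7 and 50.2 times (1437689_x_at) and 40.8 and 45.3 times (1418626_a_at). The log2 ratios ran from -0.47 to 0.15, and after loess from -0.96 to -0.41. All 4 were above 0 with the hybridization controls set equal.

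*Sparcl1*, which encodes hevin, a matricellular protein of astrocytes and of brain vessels, had 165 times the median on the array labelled Prom1-, against 146 times on that labelled Prom1+ by its 1 probe set. The log2 ratio was -0.18, -0.01 after loess and 0.84 with the hybridization controls set equal. Few probe sets of this signal differed by 2-fold between the arrays. At a mean log2 signal of 7 to 8, none of 500 measured probe sets was at least 2-fold higher and 2.60% were lower, and at 6 to 7 these shares were 1.06% and 0.904%.

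**Figure D3:**
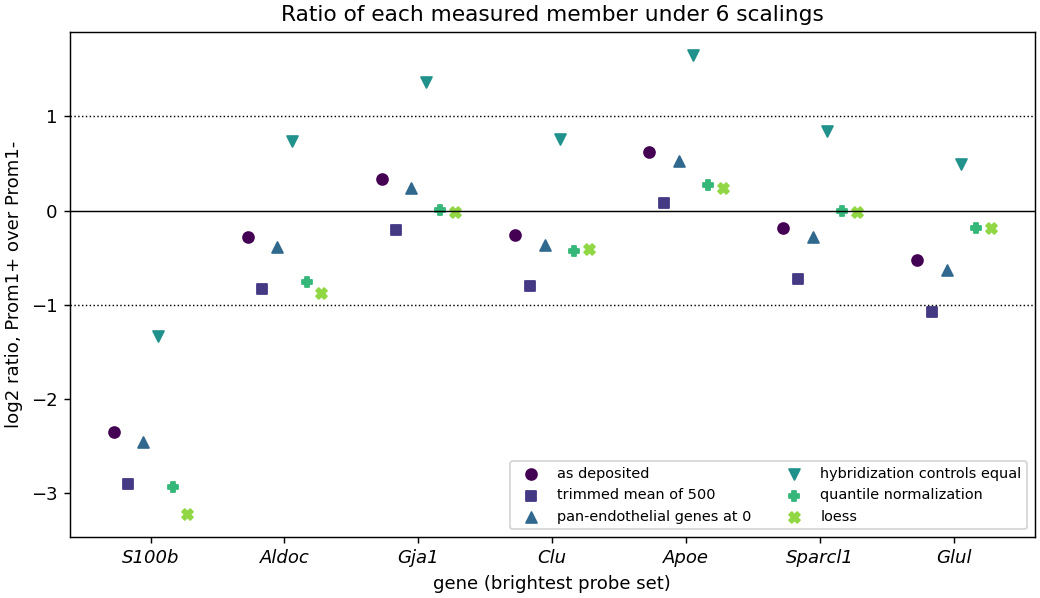
Log2 ratio of Prom1+ over Prom1- for the brightest probe set of each of the 7 genes that reached the floor on both arrays, under 6 scalings (symbols). Dotted lines mark 2-fold. *S100b* lies below -1 in all 6, *Apoe* lies above 0 in all 6, and the other 5 genes change sign between scalings.

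Over all 10 genes the median log2 ratio was -0.09 after the floor, with the unmeasured genes at 0 by construction, against 0 over all 18194 genes and 0.66 over the 10793 genes with at least 1 signal above the floor. As deposited, without the floor and thus with the signals under it, it was -0.41 against 0.49 over all genes. Of the 9 probe sets of these genes with neither signal above the floor, 5 had a ratio below 0 and 4 above. With the hybridization controls set equal the median of the 10 after the floor was 0.62, against 0.83 over all genes and 1.70 over genes measured on both arrays. By summed signals of their brightest probe sets, the 5 genes mostly of astrocytes went from 21.9 to 6.54 times the median, most of it in *S100b*, which went from 15.9 to 3.11 times, while *Aldoc* went from 3.47 to 2.85 times. The 5 shared genes went from 634 to 573 times.

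Of 29 further genes known from astrocytes with a probe set of 1 symbol, 17 were under the floor on both arrays, among them *Cldn10*, a claudin, *Fabp7*, a fatty acid carrier, and *Bcan*, which encodes brevican. The array labelled Prom1+ had 4 lower by 2-fold or more and 4 higher, and 4 differed by less, where 2.83% of all genes were lower and 16.7% higher. The split was 5 lower and 1 higher with a trimmed mean of 500, 5 and 0 with quantile normalization or loess, and 0 and 5 when the hybridization controls were made equal. Of all genes, 4.77% were lower and 4.83% higher with the trimmed mean, and 4.62% and 3.79% with quantile normalization. These shares were 4.67% and 3.29% with loess, and 1.04% and 47.5% with the hybridization controls equal. The lower genes were *Atp1b2*, a sodium pump subunit also known as an adhesion molecule of glia, at 31.2 and 9.89 times the median in the arrays labelled Prom1- and Prom1+, *Ndrg2* at 18.9 and 6.72 times, the lipid phosphatase *Plpp3* at 33.9 and 14.8 times, and connexin 30 (*Gjb6*) at 3.57 and 0.280 times. *Atp1b2* was 3.15-fold lower by its brightest probe set and 3.95-fold lower by its other, *Ndrg2* 2.82-fold, *Plpp3* 2.28-fold by its brightest probe set and 1.37-fold by its other, and *Gjb6* at least 2.13-fold. None of these 4 changed sign in the 6 scalings, but none remained 2-fold lower with the hybridization controls set equal.

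The higher genes were *Lcat*, the enzyme that esterifies cholesterol in lipoproteins, at 5.64 and 18.3 times the median, the growth factor receptor *Fgfr3* at 4.52 and 12.8 times, the secreted protease *Htra1* at 23.3 and 56.7 times, and the transcription factor *Sox9* at 3.64 and 8.11 times. Their folds were 3.24, 2.83, 2.43 and 2.23. None of the 4 changed sign in the 6 scalings, but the lowest log2 ratio of each was between 0.29 and 0.79, under 2-fold. *Gjb6*, *Sox9* and the genes under the floor were chosen for naming after their values were seen. The brightest gene of the list, *Mfge8*, which encodes a bridging protein for phagocytosis, had 102 and 84.8 times the median. The other genes that differed by less than 2-fold, also named after their values were seen, are carriers of glutamate or bicarbonate. *Slc1a3* had 18.5 and 17.7 times the median, and *Slc1a2* had 3.23 times on the array labelled Prom1- and 1.46 times, under the floor, in the array labelled Prom1+, at least 1.93-fold lower. *Slc4a4* had 0.940 times, under the floor, and 2.89 times, at least 1.72-fold higher.

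The complex that anchors aquaporin 4 and potassium channels at the endfoot was seen mainly through genes that vessels also use. Its list held 8 genes with a probe set of 1 symbol. Agrin (*Agrn*), a proteoglycan of the basement membrane, had 141 and 137 times the median, and dystroglycan (*Dag1*), the receptor that binds it, had 52.8 and 60.5 times. Dystrophin (*Dmd*) had 23.2 and 12.9 times by its brightest probe set and was 3.13-fold lower by another. The potassium channel of the endfoot, *Kcnj10*, had 2.44 times on the array labelled Prom1- and 1.39 times, under the floor, in the array labelled Prom1+. *Mlc1*, *Hepacam* and *Dtna* were under the floor on both arrays. Of all genes, 2.83% were at least 2-fold lower and 16.7% higher. By the brightest probe set of each gene of this list, dystrobrevin beta (*Dtnb*) alone differed by 2-fold, at least 2.90-fold higher, with 0.987 and 4.85 times the median. By its brightest probe set *Dtnb* stayed at least 2-fold higher in the 6 scalings, and its other probe set was under the floor on both arrays. *Agrn*, *Dag1*, *Dmd* and *Kcnj10* each changed sign in at least 1 scaling. The log2 ratio of *Dmd* was above 0 only with the hybridization controls set equal, at 0.18. It was at least 2-fold lower with a trimmed mean of 500, quantile normalization or loess, and lowest at -1.70.

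Of 10 genes that astrocytes raise when they become reactive, 4 were under the floor on both arrays (*Serpina3n*, *Steap4*, *Timp1* and *Cd44*). By the brightest probe set of each gene, 1 was at least 2-fold higher, where 16.7% of all genes were, and 5 differed by less. The brightest was vimentin (*Vim*), an intermediate filament protein also made by endothelium, at 400 and 252 times the median. The small heat shock protein *Hspb1* had 184 and 145 times, the oncostatin M receptor *Osmr* 64.5 and 85.1 times, ceruloplasmin (*Cp*), a copper-carrying ferroxidase, 57.9 and 85.0 times, and nestin (*Nes*), a filament protein of progenitors and new vessels, 49.7 and 69.1 times. The other measured probe sets of *Cp* were 1.68, 1.77, 1.91, 1.97, 2.03 and 2.07-fold higher, and 1 more was under the floor on both arrays. For *Nes* only the brightest probe set is given. The gene at least 2-fold higher by its brightest probe set was lipocalin 2 (*Lcn2*), at least 4.90-fold higher, with 0.0118 and 8.21 times the median. *Vim*, *Hspb1*, *Osmr* and *Nes* changed sign in at least 1 of the 6 scalings and *Lcn2* and *Cp* did not. These genes also serve activated endothelium, so the list does not mark astrocytes alone.

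Markers of other cells differed between the arrays as well. The counts below stand beside 2.83% of all genes lower by 2-fold or more and 16.7% higher. Of 17 mural genes, the array labelled Prom1+ had 14 lower by 2-fold or more and none higher, with summed signals of 1675 and 582 times the median in the arrays labelled Prom1- and Prom1+. Of 15 microglia and macrophage genes 11 were lower and none higher (337 and 141 times). Of 12 fibroblast and meningeal genes 6 were lower and none higher (377 and 68.9 times, of which *Ptgds* alone had 305 and 40.3 times). These counts of lower genes ran from 4 to 15, 0 to 13 and 3 to 7 over the 6 scalings. Of all genes, 1.04% to 4.77% were lower and 3.29% to 47.5% higher over the same scalings. Of 7 choroid plexus genes 3 were lower (*Ttr*, *Folr1* and *Kcnj13*) and none higher (442 and 216 times), with *Ttr*, the transthyretin gene, alone at 426 and 210 times. Of 10 oligodendrocyte genes, which bear on *S100b* and *Glul*, 2 were lower (*Mbp* and *Mobp*) and 1 higher (*Cnp*, summed signals 556 and 362 times), with *Mbp*, the myelin basic protein gene, at 271 and 119 times. Of 24 pan-endothelial genes, of which 0 to 15 were higher over the 6 scalings, none was lower and 2 were higher (*Erg* and *Nos3*, summed signals 3189 and 3141 times). Of 11 neuron genes 2 were lower (*Snap25* and *Syt1*) and none higher, with 6 under the floor on both arrays. Their summed signals were 69.1 and 85.1 times, with the brightest, *Stmn2*, at 45.1 and 79.5 times, 1.76-fold higher. *Syt1* was lower by a bound of 1 probe set, and its other probe sets were under the floor on both arrays. Of 10 ependymal genes 8 were under the floor on both arrays and none differed by 2-fold, and of 7 oligodendrocyte precursor genes 6 were, also with none. In this paragraph and the last, *Nes*, the genes under the floor, *Kcnj13*, *Mobp*, *Cnp*, *Erg*, *Nos3* and *Snap25* were named after their values were seen. The part of these cells in the values of *S100b*, *Aldoc*, *Apoe*, *Clu*, *Gja1*, *Glul* and *Sparcl1* was not tested.

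**Figure D4:**
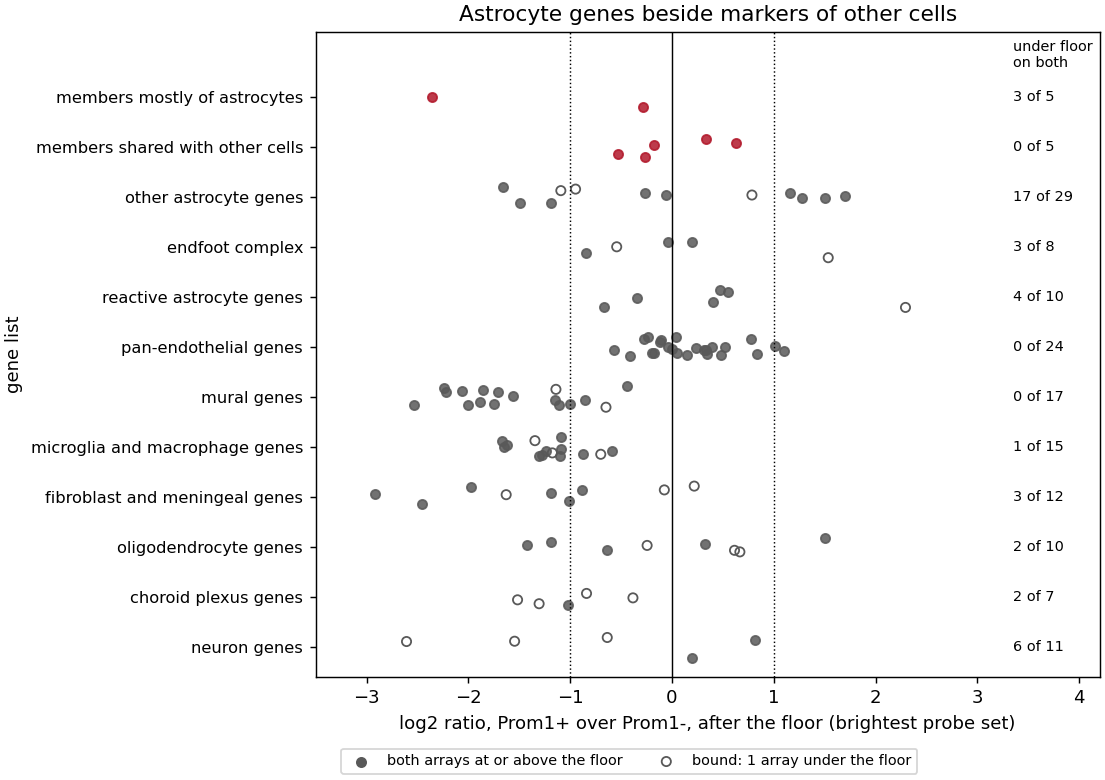
Log2 ratio of Prom1+ over Prom1- after the floor for the brightest probe set of each gene, by gene list (red for the 10 genes, grey for other lists). Filled points have both arrays at or above the floor and open points are bounds, with the genes under the floor on both arrays counted at the right. *S100b*, at -2.35, lies in the range of the mural and fibroblast genes, and the 5 shared genes lie within 2-fold, as do 22 of the 24 pan-endothelial genes.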

How the data were processed

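Signals were brought by the authors to a scanner target of 500, followed by GeneSpring normalization, and MAS5 is named in the processing notes of the submitters. The deposited log2 values are relative to the median of each array, from the values themselves, since both medians are 0 and the lowest signal is 0.01 times the median. The unscaled signals and detection calls were not used here. The platform annotation gave 1 gene symbol for 34958 probe sets and several for 932, and 9211 are unlisted. Symbols were updated through a RefSeq table of the GRCm38.p6 assembly, used for names only (34754 identifiers found).

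The floor of 100 was translated to 1.67 times the median by averaging the 2% trimmed means of the arrays, 6.81 times the median (Prom1-) and 9.94 times (Prom1+). The loess curve (span 0.2) used probe sets at or above the floor on both arrays and was held level below it. Each scaling was applied before the floor. The 18 hybridization controls had a median log2 ratio of -1.02. The genes named were all members, *Prom1*, *Pecam1*, the 4 brightest and the 2 with the largest ratio each way of each related list, and the 2 brightest of each list of other cells, of which a part is printed. Members, lists and rules were chosen with earlier results of these data known. The number of arrays, 2, limits the precision. Scripts were tested on simulated data and run in Python 3.11.15 with statsmodels 0.14.6 for loess, pandas 2.3.3 and numpy 2.4.6 for tables, and matplotlib 3.10.9 for plots. The sequences of the probes were not used here.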

Additional observations from a re-analysis of the deposited data

How the results depend on the processing

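*S100b* was at least 2-fold lower under each of the 13 alternatives, with a log2 ratio from -3.22 to -1.33. As reported, 1 of the 10 genes was lower and none higher, and 3 of the 26 probe sets were lower and 1 higher. Without a floor 3 genes were lower (*Gfap*, *Aqp4* and *S100b*), with 6 probe sets lower and 4 higher, and with the highest Bacillus control as the floor the same 3 genes and 5 probe sets were lower. Of all genes, 18.6% were lower and 28.2% higher without a floor, and 9.96% and 21.3% with the Bacillus control as the floor. The log2 ratio of *Gfap* was -4.82 without a floor and a bound of -1.05 with the Bacillus control as the floor. The first rests on a signal of 0.0171 times the median on the array labelled Prom1+, below the Bacillus controls. The ratio of *Aqp4* was -2.45 under both settings. With both arrays at a trimmed mean of 500, 2 genes (*S100b* and *Glul*) and 5 probe sets were lower, where 4.77% of all genes were. With the mean over the probe sets of a gene, 2 genes were lower (*S100b* and *Aldoc*, with a bound of -1.28), where 1.83% of all genes were. The 1 higher probe set, of *Glul*, was no longer 2-fold higher with a trimmed mean of 500, the pan-endothelial genes at 0, quantile normalization, loess or a 3-fold threshold (0 probe sets in each). With the hybridization controls set equal, 2 genes (*Gja1* and *Apoe*) and 7 probe sets were higher, where 47.5% of all genes were. The median log2 ratio of the 10 genes was then 0.62, against 0.83 over all genes. At 1.5-fold, 1 gene (*Apoe*) and 2 probe sets were higher, where 32.4% of all genes were. Why the settings differ was not tested. No paired analysis was possible because each population has 1 array.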
